A study of Mus musculus with 16 samples.

Results

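The genes described here carry cells from G1 into S phase and copy the DNA. They are 37 named genes of mouse airway epithelium, out of 18193 genes measured. Of these, 14 license origins and form the replicative helicase, 12 work at the replication fork, 4 supply nucleotides and 7 are cyclins, transcription factors and other G1/S regulators. Each gene was read from the probe set annotated to its symbol alone, taking the one with the highest mean over the 16 arrays, and all values are log2 intensities. All 37 genes had such a probe set, and the mean of 36 of them lay above background (2.77, the 95th percentile of control transcripts absent from an array). Only Orc1, at a mean of 2.55, lay below it. The 4 groups, with 4 air-liquid interface cultures each, were scratched Mmp7-/- (Mmp7-null), uninjured Mmp7-null, scratched wild-type (WT) and uninjured WT airway epithelial cells, all from C57BL/6 mice. Cells at an air-liquid interface are fed from below and exposed to air above, which lets them differentiate into ciliated, secretory and basal cells. Every culture spent 24 h in serum-free medium before RNA was isolated, and the scratched cultures carried 3 scratches. The labels give neither the time between scratching and harvest nor which cultures shared an animal, so p-values measure only the spread between these cultures. Mmp7 encodes matrilysin, a metalloproteinase of injured epithelium.

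A replication origin is licensed in G1, when the origin recognition complex, Cdc6 and Cdt1 load the ring of Mcm2 to Mcm7 onto DNA. In S phase Cdc45 and the GINS complex turn that ring into an active helicase, and polymerases, the sliding clamp PCNA and its loader follow it along the fork. Many of these genes are classic targets of E2F transcription factors. The retinoblastoma protein releases these factors when the G1 cyclins and their kinases become active. The genes of mitosis are switched on later in the cycle, through promoter elements named the CHR and the CCAAT box.

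Several properties of the arrays touch the values below. Mmp7 itself lay between 2.13 and 2.59 on all 16 arrays, below background in both genotypes, so it gave no check of the genotype labels. The arrays fell into sets by which spiked-in control transcript they carried. Lys was detected on 4 Mmp7-null arrays, Trpn on 6 WT arrays, and Phe on 4 Mmp7-null arrays and on replicate 1 of both WT groups, so only the Phe arrays held both genotypes. What these sets stand for is not given in the sources used here. WT scratched replicate 3 and Mmp7-null scratched replicate 1 had the lowest upper quartiles of intensity (115.0 and 119.1 on the linear scale, against 125.8 to 134.0 on the others), and WT scratched replicate 4 had an actin 3' to 5' difference of 2.62, against 1.53 to 1.93 elsewhere. Mmp7-null scratched replicate 1 was the lowest of its group for 25 of the 37 genes, while it was lowest for 49.4% of all genes above background. WT scratched replicate 3 was the lowest of its group for 20 of the 37, against 37.9% of genes above background.

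Few of these genes passed the test on scratching. In WT cultures 0 of 37 rose, 2 fell and 35 did not pass the test (limma, Benjamini-Hochberg adjusted over all genes, below 0.05). The 2 that fell were Mcm2, a subunit of the helicase ring, and Slbp, which binds the stem-loop of histone mRNAs. Of all genes, 2.3% fell and 2.55% rose in the same comparison. The median log2 fold change of the 37 genes was -0.12, with 26 below 0, beside a median of 0.01 over all genes, and 7 (18.9%) had an unadjusted p below 0.05, against 16.5% of all genes. In Mmp7-null cultures 0 of 37 passed in limma, where 4.72% of all genes did (2.27% higher and 2.45% lower). Of the 37, 4 had an unadjusted p below 0.05, against 17.4% of all genes, and the median was -0.08 against -0.02 over all genes. In WT the 95% interval of each of the 37 genes lay within 1 log2 unit of 0, and 22 lay within 0.5. In Mmp7-null cultures 36 lay within 1, the exception being Fen1, and 24 within 0.5. Of all 18193 genes, 17751 lay within 1 and 14926 within 0.5 in WT. In Mmp7-null cultures these counts were 17819 and 15015.

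**Figure D1:**
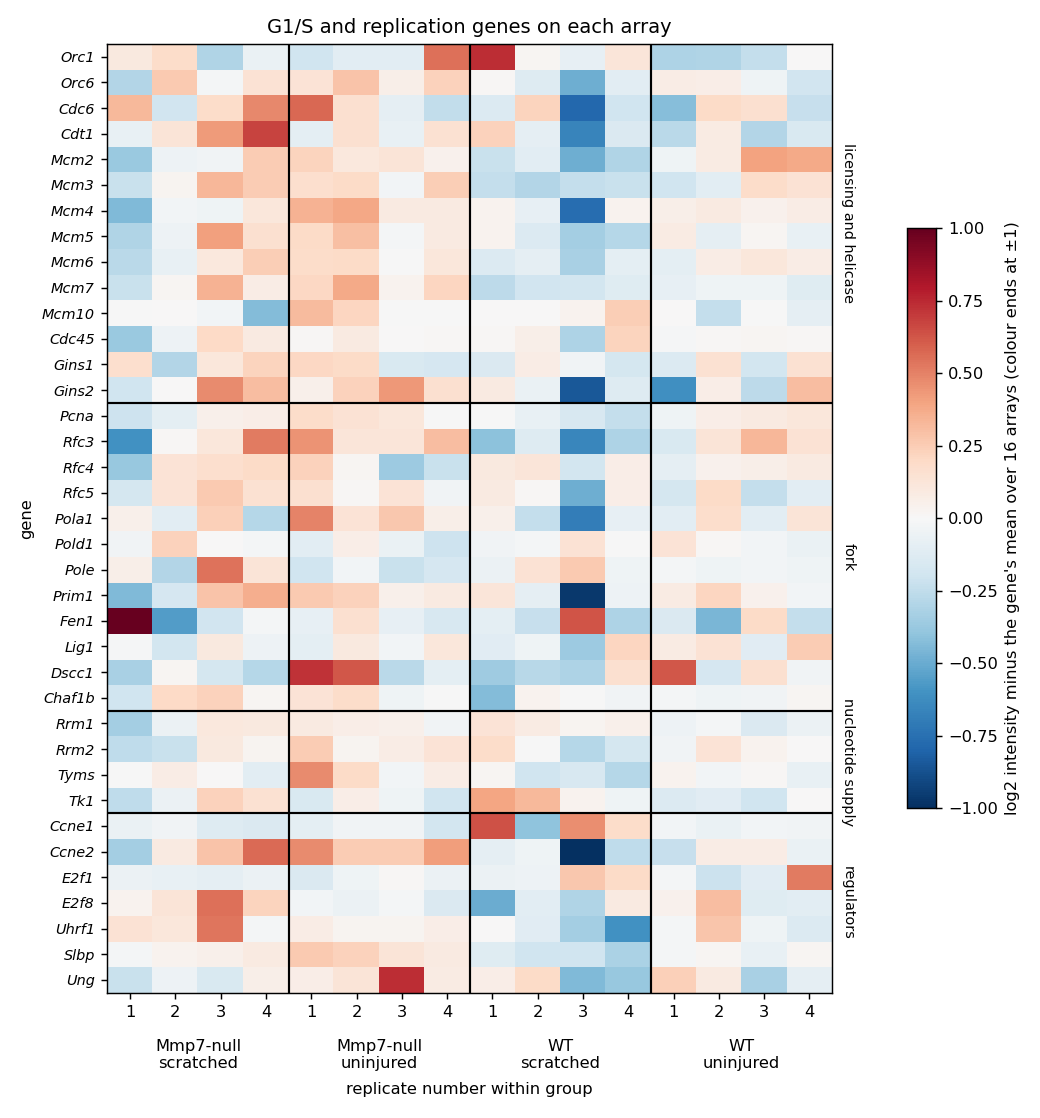
Log2 intensity of each of the 37 genes on each of the 16 arrays, as the difference from that gene's mean over the 16 arrays (colour scale ending at 1 log2 unit either way). Columns are arrays by group and replicate and rows are genes by class; the darkest blue cells of licensing, fork and cyclin genes lie on WT scratched replicate 3, and the darkest red cell is Fen1 on Mmp7-null scratched replicate 1.

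Between genotypes the 37 genes leaned the other way, again with few passing the test. Slbp was higher in Mmp7-null than in WT cultures both before and after scratching, and it was the 1 gene of 37 that passed in either state; of all genes, 4.79% passed in uninjured cultures (2.3% higher and 2.5% lower) and 6.21% in scratched ones (3.29% higher and 2.92% lower). The median was 0.11 in uninjured and 0.16 in scratched cultures, with 29 of the 37 genes above 0 in each, beside medians of -0.01 and -0.04 over all genes. An unadjusted p below 0.05 was found for 2 of the 37 genes in uninjured cultures, against 15.5% of all genes. In scratched cultures 7 had an unadjusted p below 0.05, and all 7 were higher in Mmp7-null cells: Slbp, Uhrf1, E2f8, Mcm3, Mcm7, Cdt1 and Ccne2. That is 18.9% of these genes, against 7.63% of all genes with such a p and higher, and 22.3% in either direction. When the spike-in sets entered the model as blocks, the medians were 0.05 in uninjured and 0.07 in scratched cultures, and 0 of 37 genes passed in each; over all genes this block left 57 of 18193 in uninjured and 252 in scratched cultures, against 872 and 1130 without it.

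**Figure D2:**
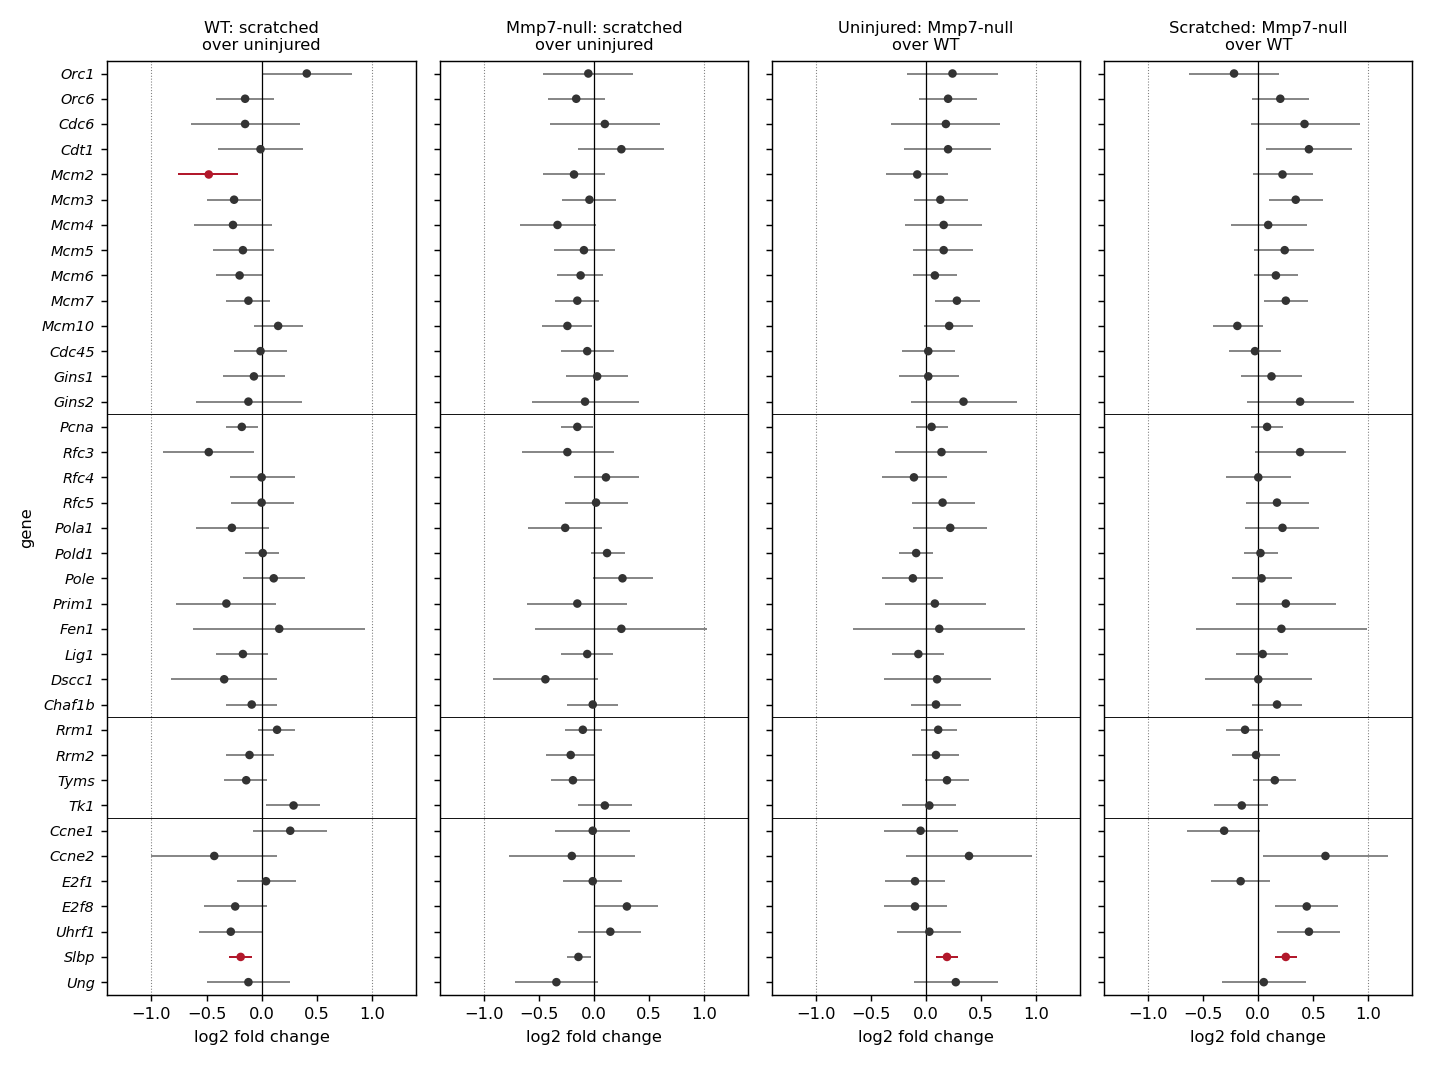
Log2 fold change of each of the 37 genes (points) with its 95% confidence interval (lines) in the 4 comparisons, from the limma model over 16 arrays; red marks an adjusted p below 0.05 and dotted lines mark a change of 1 either way. Intervals cross 0 for most genes, and the genes in red are Mcm2 and Slbp in WT, and Slbp in both genotype comparisons.

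The licensing and helicase genes held the larger of the 2 falls. Mcm2 read 7.02, 7.14, 6.76 and 6.94 in scratched WT cultures, against 7.20, 7.33, 7.65 and 7.62 in uninjured WT cultures. Every scratched value lay below every uninjured one. In Mmp7-null cultures it read 6.87, 7.19, 7.21 and 7.50 after scratching, against 7.47, 7.35, 7.37 and 7.29 without injury, and these groups overlapped. Mcm2 fell by 0.48 ± 0.13 (SE) on the log2 scale in WT, or 0.72-fold, with an adjusted p of 0.048 in limma. The estimate in Mmp7-null was -0.18 ± 0.13 (adjusted p = 0.57), and the difference between the responses, 0.30 with a 95% interval of -0.09 to 0.70, did not pass (adjusted p = 0.73). The WT call sat at the edge of the threshold: without WT scratched replicates 3 and 4 and Mmp7-null scratched replicate 1 it was -0.37 (adjusted p = 0.17), and leaving out single arrays gave adjusted p-values up to 0.14, the highest without WT scratched replicate 3. Within the Trpn arrays it was -0.59 (adjusted p = 0.11). The Phe arrays hold 1 scratched and 1 uninjured WT culture, which differed by -0.18 and allow no replicate check of their own.

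A dimmer probe set of Mcm2 also separated the scratched WT cultures. It read 4.42, 4.35, 4.30 and 4.24 there, 5.02, 4.75, 5.18 and 4.94 in uninjured WT cultures, and between 4.76 and 5.14 on the 8 Mmp7-null arrays. All 4 scratched WT values thus lay below each of the other 12. Fitted over all probe sets, its change on scratching in WT was -0.65 ± 0.08 (adjusted p = 0.00065), and scratched Mmp7-null exceeded scratched WT cultures by 0.61 (adjusted p = 0.0014). Its change on scratching in Mmp7-null cells was -0.12 ± 0.08 (adjusted p = 0.65), and the difference between the responses, 0.53 ± 0.12, did not pass (adjusted p = 0.18). This probe set has the suffix that the maker gives to sets matching several transcripts, and it was looked at because Mcm2 had passed. The probe sets from which Mcm3 and Mcm7 were read carry the same suffix. The stretch of 250 bases before the Mcm2 start site (RefSeq, GRCm38.p6, minus strand, chr6:88898781-88899030) is shown because Mcm2 is the helicase gene that fell; it holds a CHR (TTTGAA) and a CCAAT box read on the opposite strand, both in capitals, and neither spelling of the E2F motif searched here.
Mcm2 upstream: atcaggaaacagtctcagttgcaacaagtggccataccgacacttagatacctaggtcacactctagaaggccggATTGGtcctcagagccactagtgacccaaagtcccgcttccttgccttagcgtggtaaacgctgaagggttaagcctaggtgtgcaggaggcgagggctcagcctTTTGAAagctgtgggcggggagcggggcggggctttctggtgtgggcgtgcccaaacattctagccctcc

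The other 5 subunits of the helicase ring had the sign of Mcm2 on scratching, with none past the threshold. Over the 6 subunits the median was -0.23 in WT and -0.14 in Mmp7-null cultures, with 6 of 6 below 0 in each, and in WT 4 of the 6 had scratched and uninjured values that did not overlap, where 5.82% of all genes were so separated in that direction. Mcm3, the subunit beside Mcm5 in the ring, read 7.12, 7.06, 7.12 and 7.13 in scratched WT cultures, against 7.16, 7.25, 7.54 and 7.50 in uninjured ones. In scratched Mmp7-null cultures it read 7.13, 7.38, 7.69 and 7.61. The scratched WT values lay close together, below all uninjured WT values, and met the lowest scratched Mmp7-null value at 7.13 (4.19% of all genes lay wholly higher in scratched Mmp7-null cultures). The change in WT was -0.25 ± 0.11 (adjusted p = 0.27) and the excess in scratched Mmp7-null cells 0.34 ± 0.11 (adjusted p = 0.096). That excess passed in 3 of 28 alternatives, among them without Mmp7-null scratched replicate 1, at 0.45 (adjusted p = 0.017), and its adjusted p ran up to 0.58. Fitted over all probe sets in limma, the dimmer ones of Mcm3 above background gave 0.33, 0.57 and -0.12 for this excess. Of these, 0.57 passed (adjusted p = 0.037). On scratching Mmp7-null cells they gave -0.11, 0.17 and -0.18 in the same order. Mcm4 stood at 8.14, 8.56, 8.54 and 8.70 in scratched Mmp7-null cultures, against 8.93, 8.97, 8.67 and 8.67 in uninjured ones, a difference of -0.33 ± 0.16 (adjusted p = 0.33).

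Mcm7, whose product joins Mcm4 and Mcm6 in the ring, had the smallest p of this class between the uninjured genotypes. It read 10.00, 10.17, 9.83 and 10.01 in uninjured Mmp7-null cultures, against 9.71, 9.75, 9.75 and 9.67 in uninjured WT cultures. The 2 groups did not overlap, as for 5.44% of all genes in this direction, and the difference was 0.28 ± 0.09 (adjusted p = 0.12). After scratching it read 9.57, 9.81, 10.14 and 9.87 in Mmp7-null cultures, against 9.53, 9.60, 9.61 and 9.67 in WT cultures, with an overlap and a difference of 0.25 ± 0.09 (adjusted p = 0.15). Without Mmp7-null scratched replicate 1 they were 0.28 (adjusted p = 0.046) and 0.34 (adjusted p = 0.029), but they passed in 3 and 2 of 28 alternatives only, with estimates down to 0.15 and adjusted p-values up to 0.90 and 0.40. Over the 6 ring subunits the median difference in scratched cultures was 0.23, with 6 of 6 above 0.

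Mcm10, which helps to start unwinding, lay near the lower end of the measurable range. It read 3.56, 3.57, 3.54 and 3.13 in scratched Mmp7-null cultures, 3.88, 3.78, 3.56 and 3.56 in uninjured Mmp7-null cultures, 3.57, 3.57, 3.60 and 3.81 in scratched WT cultures and 3.57, 3.33, 3.56 and 3.48 in uninjured WT cultures. Its scratch response differed between genotypes by -0.40 ± 0.15, and this did not pass (adjusted p = 0.51). Orc1, the largest subunit of the origin recognition complex, had a mean below background in each of the 4 groups (2.53, 2.58, 2.75 and 2.34), and only 3.29 in WT scratched replicate 1 and 3.10 in Mmp7-null uninjured replicate 4 rose above it. The loading factors Cdc6 and Cdt1 were estimated 0.42 and 0.46 higher in scratched Mmp7-null than in scratched WT cultures, with intervals of -0.07 to 0.92 and 0.07 to 0.85 and adjusted p-values above 0.05. Cdc45, the GINS subunits Gins1 and Gins2, and Orc6 passed in no comparison, with estimates between -0.16 and 0.38.

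At the fork 0 of 12 genes passed in each comparison in limma, where between 0.132% (interaction) and 6.21% (scratched genotypes) of all genes did. The medians were -0.13 on scratching WT and -0.04 on scratching Mmp7-null cultures. Between genotypes the medians were 0.09 in uninjured and 0.12 in scratched cultures. Estimates were above 0 for 8 of 12 in uninjured cultures, against 37.9% of all genes. In scratched cultures this held for 12 of 12, against 32.0% of all genes, although those of Rfc4 and Dscc1 rounded to 0.00. An unadjusted p below 0.05 was found for 2 (16.7%) on scratching WT cells, against 16.5% of all genes. It was found for 1 (8.33%) on scratching Mmp7-null cells, against 17.4%. In the genotype comparisons and the interaction it was found for 0. There 15.5% (uninjured), 22.3% (scratched) and 7.79% (interaction) of all genes had such a p. The 2 in WT belong to the sliding clamp and its loader. Pcna, the clamp itself, read 11.42, 11.35, 11.27 and 11.19 in scratched WT cultures, against 11.38, 11.49, 11.52 and 11.54 in uninjured ones. In Mmp7-null cultures it read 11.22, 11.33, 11.48 and 11.49 after scratching, against 11.61, 11.57, 11.54 and 11.42 without injury. Both pairs overlapped, with estimates of -0.18 ± 0.07 (adjusted p = 0.19) in WT and -0.15 ± 0.07 (adjusted p = 0.26) in Mmp7-null cells. Rfc3, a subunit of the clamp loader, read 6.75, 7.03, 6.51 and 6.85 in scratched WT cultures, against 7.01, 7.29, 7.49 and 7.30 in uninjured ones, a difference of -0.48 ± 0.19 (adjusted p = 0.21). Scratched Mmp7-null cultures spread more widely for Rfc3, at 6.55, 7.17, 7.27 and 7.68.

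The polymerase genes Pole, Pold1 and Pola1 shared no direction on scratching or between uninjured genotypes. Between scratched genotypes all were estimated above 0, at 0.03, 0.02 and 0.22, and none passed. Pole, the catalytic subunit of the polymerase assigned to the leading strand in yeast, read 5.90, 5.55, 6.38 and 5.97 in scratched Mmp7-null cultures, against 5.64, 5.81, 5.62 and 5.67 in uninjured ones (0.26 ± 0.13, adjusted p = 0.32). Pold1, that of the polymerase assigned to the lagging strand in yeast, read 7.18, 7.35, 7.22 and 7.08 in uninjured Mmp7-null cultures, against 7.42, 7.30, 7.26 and 7.22 in uninjured WT cultures (-0.09 ± 0.07, adjusted p = 0.68). Pola1, the catalytic subunit of the polymerase that lays primers with Prim1, read 6.37, 6.01, 6.14 and 5.93 in uninjured Mmp7-null cultures, against 5.77, 6.05, 5.77 and 6.00 in uninjured WT cultures (0.22 ± 0.16, adjusted p = 0.65). All 3 pairs of groups overlapped. Chaf1b, a subunit of the chromatin assembly factor that places histones behind the fork, read 4.53, 4.93, 4.96 and 4.75 in scratched Mmp7-null cultures, against 4.30, 4.77, 4.73 and 4.70 in scratched WT cultures (0.17 ± 0.11, adjusted p = 0.32).

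Fen1, the nuclease that trims Okazaki fragments, had the widest spread of the 37 genes. It read 10.31 on Mmp7-null scratched replicate 1 and 9.34 on WT scratched replicate 3, the 2 arrays with the lowest upper quartiles, and 8.15 to 8.90 on the other 14. Its dimmer probe set did not share these peaks, with 6.41 and 6.90 on those 2 arrays. Rfc4, Rfc5, Prim1, Lig1 (the ligase that seals the fragments) and Dscc1 (a subunit of an alternative clamp loader) had estimates between -0.44 and 0.25 in the 4 comparisons.

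Nucleotide supply was the class with no lean on scratching WT cells, at a median of 0.02. Tk1, thymidine kinase, read 6.28, 6.21, 5.92 and 5.84 in scratched WT cultures, against 5.75, 5.77, 5.69 and 5.89 in uninjured ones. The highest uninjured value exceeded the lowest scratched one, and the difference was 0.29 ± 0.12 (adjusted p = 0.21). It passed in 2 of 29 alternatives, without the 3 arrays that stood apart at 0.47 (adjusted p = 0.017) and with array weights at 0.41 (adjusted p = 0.014). Rrm1, the large subunit of ribonucleotide reductase, read 9.25, 9.19, 9.14 and 9.16 in scratched WT cultures, against 9.06, 9.09, 8.97 and 9.05 in uninjured ones. These groups did not overlap, which held in this direction for 4.21% of all genes, and the difference of 0.14 ± 0.08 did not pass (adjusted p = 0.41).

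In Mmp7-null cultures the nucleotide genes were estimated lower after scratching, except Tk1 at 0.10. Rrm2, the small reductase subunit, read 8.62, 8.65, 8.97 and 8.90 in scratched Mmp7-null cultures, against 9.13, 8.90, 8.95 and 9.01 in uninjured ones (-0.21 ± 0.10, adjusted p = 0.30). Tyms, thymidylate synthase, read 4.34, 4.42, 4.35 and 4.24 in scratched Mmp7-null cultures, against 4.82, 4.54, 4.32 and 4.42 in uninjured ones (-0.19 ± 0.09, adjusted p = 0.32). Both pairs overlapped. All 4 nucleotide genes had an interaction estimate below 0 (median -0.14), and Rrm1 had the smallest p of them, at -0.24 ± 0.11 (adjusted p = 0.63).

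Among the regulators Slbp carried 3 of the 4 calls made on these genes. Its product binds replication-dependent histone mRNAs, which are needed while DNA is copied. It read 9.83, 9.88, 9.90 and 9.94 in scratched Mmp7-null cultures, 10.11, 10.08, 9.98 and 9.94 in uninjured Mmp7-null cultures, 9.73, 9.65, 9.65 and 9.53 in scratched WT cultures and 9.83, 9.87, 9.77 and 9.87 in uninjured WT cultures. Scratched WT cultures lay below all other groups, and uninjured Mmp7-null cultures lay above both WT groups. On scratching, Slbp fell by 0.19 ± 0.05 (adjusted p = 0.032) in WT. It was 0.19 ± 0.05 higher (adjusted p = 0.034) in uninjured and 0.25 ± 0.05 higher (adjusted p = 0.0066) in scratched Mmp7-null cultures than in WT, or 1.14-fold and 1.19-fold. The estimate on scratching Mmp7-null cells was -0.14 ± 0.05 (adjusted p = 0.13), and the scratch responses differed by 0.06, with an interval of -0.09 to 0.20.

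**Figure D3:**
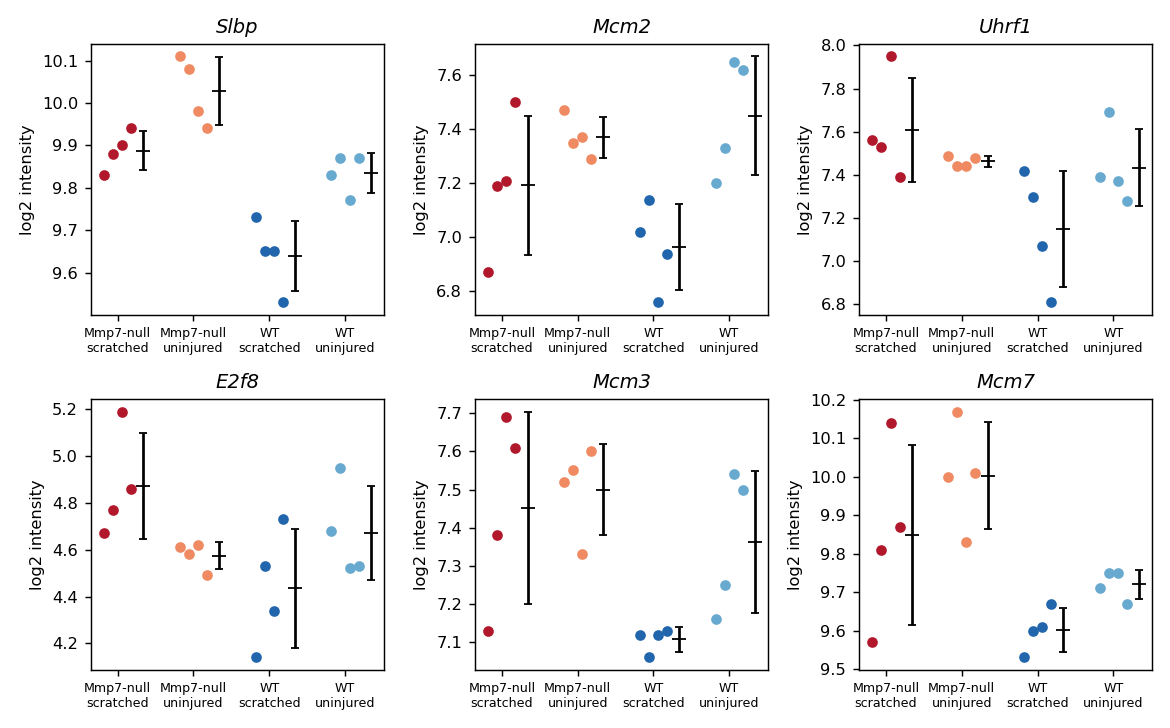
Log2 intensity on each array (points) of the 6 genes with the smallest adjusted p over the 5 comparisons, by group, with mean and SD (bars, n = 4). Slbp lies lowest in scratched WT cultures (9.53 to 9.73) and highest in uninjured Mmp7-null cultures (9.94 to 10.11), while the Mmp7-null scratched values of Mcm2, Mcm3 and Mcm7 spread over a wider range than the scratched WT ones.

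The Slbp calls were not equally stable. The fall in WT passed in 15 of 29 alternatives, the excess in uninjured Mmp7-null cultures in 12 of 28 and that in scratched ones in 23 of 28. Blocking on the spike-in sets gave 0.12 (adjusted p = 0.69) in uninjured and 0.18 (adjusted p = 0.26) in scratched cultures. The Phe arrays hold 2 Mmp7-null cultures and 1 WT culture in each state, and their estimates were 0.13 and 0.16, with no replicate check on the WT side. On scratching WT the difference was -0.23 (adjusted p = 0.042) within the Trpn arrays and -0.10 between the 1 scratched and 1 uninjured Phe array. Without the 3 arrays that stood apart the fall was -0.15 (adjusted p = 0.17) and the excess in scratched Mmp7-null cultures 0.22 (adjusted p = 0.051). A second, dimmer probe set of Slbp read 3.58 to 5.14 over the 16 arrays and passed in no comparison over all probe sets. Its estimates had the sign of the brightest one in the 3 comparisons that passed there. They were -0.35 on scratching WT, 0.16 in uninjured and 0.86 in scratched genotype comparisons. On scratching Mmp7-null cells the sign was opposite (0.35 ± 0.27). The dimmest probe set of Slbp, at a mean of 2.86 just above background, had the opposite sign in those 3 comparisons. It gave 0.11 on scratching WT, -0.02 in uninjured and -0.15 in scratched genotype comparisons, and passed in none. On scratching Mmp7-null cells it gave -0.02, with the sign of the brightest one. The 250 bases before the Slbp start site (RefSeq, GRCm38.p6, minus strand, chr5:33652575-33652824) are shown because this gene passed most often; they hold 3 CCAAT boxes, in capitals, and no match to the E2F or CHR letters searched.
Slbp upstream: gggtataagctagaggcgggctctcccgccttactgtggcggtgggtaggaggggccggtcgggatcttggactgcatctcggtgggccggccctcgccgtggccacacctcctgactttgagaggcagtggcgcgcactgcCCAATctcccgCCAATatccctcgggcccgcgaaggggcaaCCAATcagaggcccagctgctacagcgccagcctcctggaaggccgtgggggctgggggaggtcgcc

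Uhrf1 and E2f8 had the next smallest p-values among the regulators. Uhrf1, which brings the maintenance DNA methyltransferase to newly copied DNA, read 7.56, 7.53, 7.95 and 7.39 in scratched Mmp7-null cultures, against 7.42, 7.30, 7.07 and 6.81 in scratched WT cultures. The lowest Mmp7-null value lay just below the highest WT value, and the difference of 0.46 ± 0.13 did not pass (adjusted p = 0.064). E2f8, an E2F family repressor, read 4.67, 4.77, 5.19 and 4.86 in scratched Mmp7-null cultures, against 4.61, 4.58, 4.62 and 4.49 in uninjured ones. Scratched values lay above all uninjured ones there, as for 4.1% of all genes, by 0.30 ± 0.13 (adjusted p = 0.27), while the estimate in WT was -0.24. Its scratch responses differed by 0.53 ± 0.19 (adjusted p = 0.48), the interaction with the smallest p of the 37 genes.

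The cyclin E genes were uneven across arrays. Ccne2 read 5.44, 5.87, 6.07 and 6.35 in scratched Mmp7-null cultures, against 5.69, 5.74, 4.32 and 5.53 in scratched WT cultures, so that a single WT array lay far below the rest. Ccne1 kept between 5.12 and 5.28 in the 12 arrays other than scratched WT, where it read 5.94, 4.90, 5.77 and 5.49. The second probe set of Ccne1 did not show this spread, at 4.85 to 4.96 in scratched WT cultures. Ung, which removes uracil from DNA, read 4.20, 4.26, 4.87 and 4.21 in uninjured Mmp7-null cultures, against 4.37, 4.22, 3.81 and 4.04 in uninjured WT cultures (0.27 ± 0.18, adjusted p = 0.58). E2f1, the founding E2F activator, lay between 3.13 and 3.86 on all arrays and passed in no comparison.

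Whether the scratch response depended on Mmp7 was tested as the difference between the 2 responses. In limma 0 of 37 genes passed, and 4 had an unadjusted p below 0.05: E2f8 and Uhrf1 at 0.53 and 0.43, and Mcm10 and Rrm1 at -0.40 and -0.24. Of all genes, 0.132% passed and 7.79% had such an unadjusted p. The median over the 37 genes was 0.06, and 34 of the 37 intervals lay within 1 log2 unit of 0, as did 17453 of all 18193. The 2 scratch comparisons and the 2 genotype comparisons share arrays with each other, so the opposite signs of their medians are not separate observations.

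The genes of each class were also averaged on each array. The licensing genes stood at 0.04 ± 0.16 in scratched Mmp7-null, 0.12 ± 0.08 in uninjured Mmp7-null, -0.13 ± 0.18 in scratched WT and -0.03 ± 0.07 in uninjured WT cultures (mean deviation from the 16-array mean ± SD, n = 4). Fork genes stood at 0.02 ± 0.09, 0.07 ± 0.11, -0.11 ± 0.08 and 0.02 ± 0.01 in the same order. For fork genes the 4 scratched WT arrays, at -0.23 to -0.05, lay below the 4 uninjured WT arrays, at 0.01 to 0.03. The 6 helicase ring genes stood at -0.21 (-0.39 to -0.13) in scratched WT and 0.04 (-0.05 to 0.12) in uninjured WT cultures, which did not overlap either. Licensing genes as a whole ran as low as -0.39 in scratched WT cultures, on replicate 3, and their WT groups overlapped. Regulators overlapped too, at -0.29 to -0.01 in scratched and -0.09 to 0.07 in uninjured WT cultures. Nucleotide genes went the other way, at 0.01 (-0.12 to 0.18) in scratched and -0.04 (-0.07 to -0.01) in uninjured WT cultures, with an overlap. Taken singly, 5.82% of all genes lay wholly lower in scratched WT cultures.

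**Figure D4:**
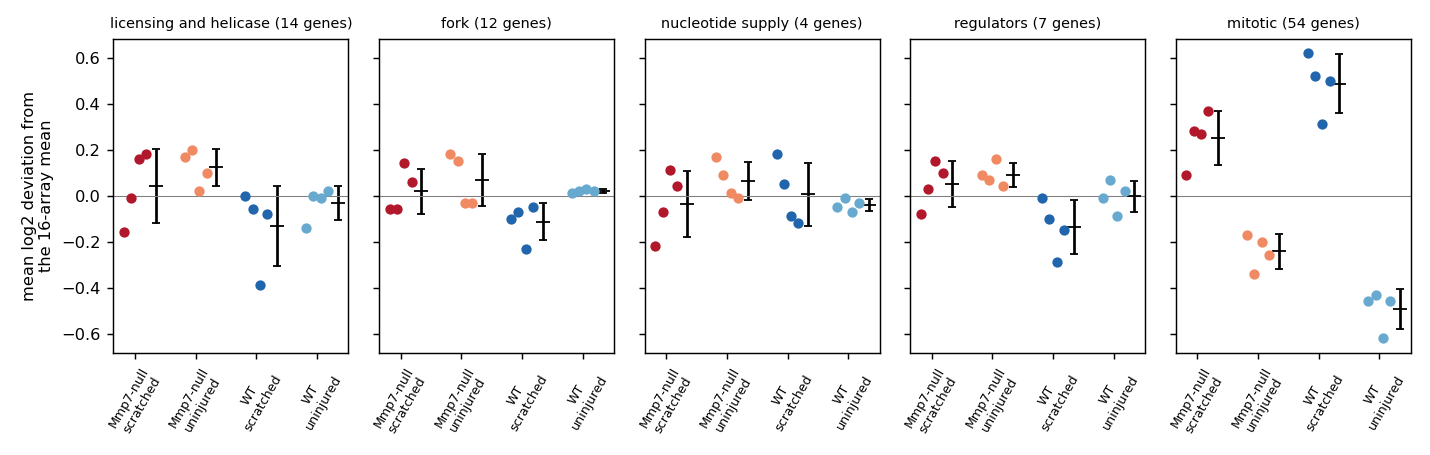
Mean log2 deviation from the 16-array mean over the genes of each class, 1 point per array, with group mean and SD (bars, n = 4). The 4 replication classes stay between -0.39 and 0.20 in all groups, whereas the mitotic genes stand at 0.49 ± 0.13 in scratched and -0.49 ± 0.09 in uninjured WT cultures.

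Most genes of mitosis, measured on the same arrays, rose on scratching WT cells. Of 54 mitotic genes, 40 rose and 0 fell in scratched WT cultures (median 0.91), and 23 rose and 0 fell in scratched Mmp7-null cultures (median 0.46). Of all genes, 2.55% rose and 2.3% fell in WT (median 0.01). In Mmp7-null cultures 2.27% of all genes rose and 2.45% fell (median -0.02). In WT the 4 that rose most by log2 fold change were Cenpa, the centromeric histone, at 2.37 ± 0.16, Cenpf, a kinetochore protein, at 2.14 ± 0.16, Ube2c, a ubiquitin ligase partner of mitotic exit, at 2.14 ± 0.13, and Ccnb2, a mitotic cyclin, at 2.03 ± 0.12 (each adjusted p below 0.05 in limma). In Mmp7-null cells Ube2c rose by 1.58 ± 0.13, the mitotic kinase gene Plk1 by 1.26 ± 0.17, Ccnb2 by 1.23 ± 0.12 and Cenpa by 1.22 ± 0.16. Between genotypes, 9 of 54 mitotic genes were higher in uninjured Mmp7-null cultures, among them Aurka (0.81), Kif2c (0.67), Cenpa (0.61) and Nek2 (0.54). In scratched Mmp7-null cultures Nek2 was higher (0.38) and 6 were lower, among them Ube2c (-0.59), Ccnb2 (-0.49), Ect2 (-0.45) and Birc5 (-0.44). Of all genes, 2.3% were higher in uninjured Mmp7-null cultures, and 3.29% were higher and 2.92% lower in scratched ones. After blocking on the spike-in sets, 1 and 0 mitotic genes were higher and 0 and 2 lower in uninjured and scratched cultures, where the calls over all genes dropped to 57 and 252. On scratching WT, a 95% interval within 1 log2 unit of 0 held for 18 of the 54 mitotic genes and all 37 replication genes. Such an interval also held for 17751 of all 18193 genes. No test of the difference between the lists was made.

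Other genes of replication, from a list of 67 of which 62 were measured, also gave few calls. On scratching WT cells 4 rose and 1 fell, with a median of -0.04. The gene that rose most was Ccna2, the cyclin of S phase and mitotic entry, at 1.48 ± 0.17 (adjusted p = 0.00011), and it rose by 0.97 ± 0.17 (adjusted p = 0.0047) in Mmp7-null cells. Dbf4, the activator of the kinase that fires licensed origins, rose by 0.50 ± 0.08, E2f2, an E2F activator, by 0.49 ± 0.12 and Samhd1, a dNTP hydrolase, by 0.41 ± 0.10, whereas Orc5 fell by 0.29 ± 0.08. In scratched Mmp7-null cells 1 of the 62 rose, Ccna2, and 1 fell, Donson, a replisome protein, at -0.48 ± 0.11. Of all genes, 4.85% passed in WT and 4.72% in Mmp7-null cells in either direction.

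Dna2, a nuclease and helicase of Okazaki fragment processing, had the largest genotype difference of the 62. It averaged 7.21 ± 0.11 in uninjured Mmp7-null and 6.13 ± 0.13 in uninjured WT cultures (SD, n = 4 each), a difference of 1.08 ± 0.13 (SE, adjusted p = 0.00052), and it was 0.95 ± 0.13 higher in scratched Mmp7-null cultures. Prim2, the large primase subunit, and Dbf4 were the other 2 higher in uninjured Mmp7-null cultures, at 0.46 ± 0.10 and 0.41 ± 0.08. In scratched Mmp7-null cultures 5 were higher and 3 lower: Dna2, Hells (0.60), E2f7 (0.59) and Mtbp (0.58) were among the higher ones, and E2f2 (-0.52), Pold4 (-0.52) and Samhd1 (-0.38) were lower. Of all genes, 6.21% passed in that comparison. Samhd1 passed in 7 and Pold4 in 10 of 28 alternatives, and blocking on the spike-in sets left 0 of the 62 in either genotype comparison. E2f7 is the close relative of E2f8.

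Genes that control G1 gave 2 calls on scratching WT cells and 0 on scratching Mmp7-null cells, where 8 of 18 (44.4%) had an unadjusted p below 0.05, against 17.4% of all genes. Of all genes, 4.85% passed on scratching WT. The 2 that rose in WT encode inhibitors of G1 kinases, Cdkn2b at 0.27 ± 0.07 and Cdkn2c at 0.30 ± 0.08. Ccnd2, a D-type cyclin, averaged 11.94 in uninjured Mmp7-null and 12.45 in uninjured WT cultures, a difference of -0.50 ± 0.09 (adjusted p = 0.007). In scratched Mmp7-null cultures 3 were lower than in WT: Ccnd2 (-0.44), Ccnd3 (-0.37) and Cdkn2c (-0.36).

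The promoters were searched for elements of G1/S and mitotic genes. Windows of 300 bases, from 250 before to 50 after each start site, came from RefSeq (GRCm38.p6) and were found for 31 of the 37 genes, 47 of the mitotic genes and 27025 genes in all. Both strands were searched for E2F motifs (TTTCGCGC or TTTGGCGC), the CHR (TTTGAA) and the CCAAT box (CCAAT); each was searched on its own, and matches may overlap. An E2F motif lay in 10 of 31 replication promoters (32.3%), 4 of 47 mitotic promoters (8.51%) and 0.929% of all promoters. The CHR lay in 4 of 31 replication promoters (12.9%), 34 of 47 mitotic promoters (72.3%) and 20.2% of all. The CCAAT box lay in 58.1%, 70.2% and 41.1% of the promoters. By class the E2F motif was found in 6 of 11 licensing, 3 of 10 fork, 0 of 4 nucleotide and 1 of 6 regulator promoters. A match is a description of these letters and does not show that a factor binds there.

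**Figure D5:**
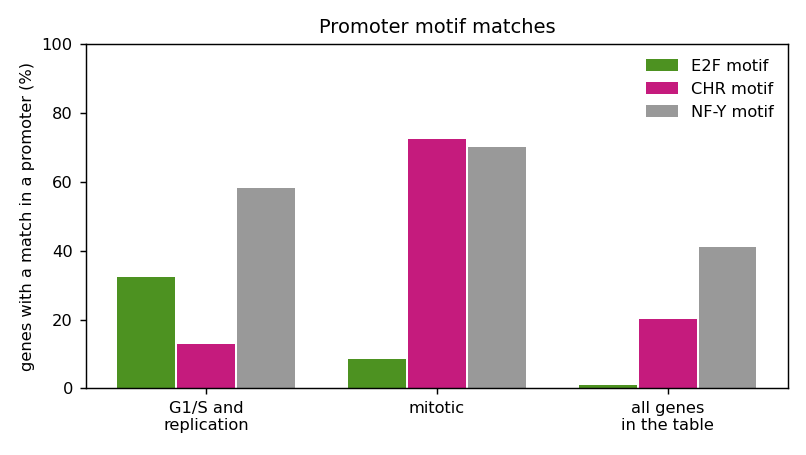
Share of promoters (%) with at least 1 match to the E2F motif, the CHR and the CCAAT box (drawn as the NF-Y motif, after the factor that binds it) among the replication genes, the mitotic genes and all genes in the promoter table. The E2F bar is highest for the replication genes (32.3%) and the CHR bar for the mitotic genes (72.3%).

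Windows of 30 bases around such matches are shown for the members with the smallest p-values and for the mitotic genes that rose most in WT, to set the 2 kinds of promoter side by side. Capitals mark the motif, on the gene's strand or, for E2f8 and Ube2c, as its reverse complement. In Mcm7 the last base of the E2F motif is also the first base of a CCAAT box. The first 3 lines hold E2F motifs, at chr1:20820263-20820292 (Mcm3, minus strand), chr5:138171849-138171878 (Mcm7, minus strand) and chr17:56304117-56304146 (Uhrf1, plus strand). The next 5 hold the CHR, at chr7:48881599-48881628 (E2f8, minus strand), chr5:30666890-30666919 (Cenpa, plus strand), chr1:189688067-189688096 (Cenpf, minus strand), chr2:164769888-164769917 (Ube2c, plus strand) and chr9:70421533-70421562 (Ccnb2, minus strand).
Mcm3: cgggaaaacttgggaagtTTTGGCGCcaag
Mcm7: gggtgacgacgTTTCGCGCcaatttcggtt
Uhrf1: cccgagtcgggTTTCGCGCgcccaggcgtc
E2f8: gagcgggttaatTTCAAAtcgggggctgga
Cenpa: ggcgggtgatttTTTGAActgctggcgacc
Cenpf: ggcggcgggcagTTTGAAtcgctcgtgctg
Ube2c: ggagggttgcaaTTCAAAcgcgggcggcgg
Ccnb2: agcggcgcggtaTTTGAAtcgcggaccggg

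Of the markers of cell types these cultures can hold, the multiciliated ones differed most often between genotypes. In uninjured Mmp7-null cultures 1 basal, 0 secretory and 1 general epithelial marker were lower than in WT. In scratched ones 1 basal marker was higher, and 2 basal, 1 secretory and 0 general epithelial markers were lower. Of all genes, 2.3% were higher and 2.5% lower in uninjured Mmp7-null cultures, and 3.29% higher and 2.92% lower in scratched ones. All 7 general epithelial, 9 basal, 9 secretory and 12 measured multiciliated markers lay above background. Of the multiciliated cell markers, 11 were higher in scratched and 8 in uninjured Mmp7-null cultures than in WT, with summed intensities of 10671 to 11867 in scratched and 10227 to 12109 in uninjured Mmp7-null cultures, against 5837 to 6620 in scratched and 6543 to 7309 in uninjured WT cultures. Basal cell markers, which include those of the dividing progenitors, summed to 21705 to 25188 in scratched and 28765 to 30261 in uninjured Mmp7-null cultures, 25969 to 27211 in scratched WT and 27065 to 30317 in uninjured WT cultures; 2 of 9 fell on scratching in each genotype. Of 11 fibroblast and smooth muscle markers, 2 were higher in Mmp7-null cultures in each state, with sums of 477 to 784 in scratched and 273 to 439 in uninjured Mmp7-null cultures, against 267 to 392 in scratched and 168 to 207 in uninjured WT cultures, although 4 of the 11, Col1a1 among them, had a mean below background. On scratching, Dcn rose by 1.23 in Mmp7-null and 1.58 in WT cells, and Acta2 by 1.07 in WT.

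Of 9 secretory markers, 3 rose on scratching in each genotype, with sums of 162930 to 193187 in scratched and 152634 to 173407 in uninjured Mmp7-null cultures, against 176996 to 188423 in scratched and 157317 to 184417 in uninjured WT cultures. Among them the mucin Muc5b rose by 2.64 in Mmp7-null and 3.26 in WT cells, and Agr2 by 1.44 and 2.54. Of all genes, 2.27% rose and 2.45% fell on scratching Mmp7-null cells, and 2.55% rose and 2.3% fell on scratching WT cells. Of 11 leukocyte markers, 6 had a mean above background, led by Cd14 and Lyz2, and Ptprc, which marks all leukocytes, was below it in every group. Cd68 and Cd14 rose by 1.03 and 0.37 on scratching WT cells, and Cd68 differed by -0.92 between scratched Mmp7-null and scratched WT cultures. Leukocyte sums were 18996 to 21097 in scratched and 15152 to 18542 in uninjured Mmp7-null cultures, against 19725 to 23466 in scratched and 15313 to 18482 in uninjured WT cultures. All 6 endothelial markers were below background. The part of all these markers in the values of the replication genes was not tested. In such bulk cultures, fewer cells of a type and less RNA per cell cannot be told apart.

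A gene's other probe sets often disagreed in sign at differences this small. For 21 of the 37 genes, 28 further probe sets lay above background. Of these 28, 5 had the opposite sign on scratching WT cells, 6 on scratching Mmp7-null cells, 9 in uninjured and 10 in scratched genotype comparisons, and 12 in the difference between the responses.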

How the data were processed

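RNA of 16 cultures was hybridised to 1 Affymetrix Mouse Genome array each. The authors deposited linear intensities made with RMA, per the submitters' processing notes, which give no version. The labels name the 430A 2.0 design, whereas the table lists 45101 probe sets and was supplied with the annotation of a larger design; its rows were used as they are. Of the probe sets other than 64 controls, 34945 carry 1 gene symbol, 932 several and 9160 none; the last 2 kinds were left out of the gene tests. For each of 18193 genes the probe set brightest on average over 16 arrays was used, on the log2 scale, with no pseudocount, further normalization or filter on dim genes.

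One limma model (R 4.3.3, limma 3.58.1) with a mean for each of the 4 groups gave the 5 comparisons, with p-values adjusted by Benjamini-Hochberg over all genes and a threshold of 0.05. Tables and figures were made with Python 3.11.15. The fit was tested on simulated data. The number of arrays limits the precision. The genes, lists, classes and tests were chosen with earlier results of these data known. Values on each array are given for each gene that passed in any comparison and, in each class with fewer than 2 such genes, for the 2 with the smallest p; from the mitotic and other replication lists, up to 4 genes per comparison and direction with the largest change are named. Genes named outside this rule (Cdc6, Cdt1, Fen1, the helicase ring as a group, the cyclin E genes, the G1 control genes and the dimmer probe sets) were chosen after their values were seen. Cultures were not treated as paired by replicate number, as the labels give no pairing. Deviations of same-numbered arrays from their group means correlated between -0.22 and 0.34, which cannot exclude a shared animal. In both WT groups replicate 1 carried the Phe control and the others Trpn. Alternatives were the replicate block, the 8 arrays compared, a filter on dim genes, other rules for probe sets, another variance model, array weights, quantile normalization, centring on medians, the spike-in set as a block and within sets, and leaving out arrays. Promoters were those of RefSeq, GRCm38.p6; 6 of the 37 genes were not in that table.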

Additional observations from a re-analysis of the deposited data

Results flagged for a closer look

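In 13 of 148 groups of 4 arrays (37 genes in 4 groups) the highest or lowest array stood apart by Dixon's test, in which its gap to the nearest other array is set against the group's whole range. Chance flags about 1 in 20 groups, and where a range is narrow the gap can be small, as for Mcm3 below. Of the low ones, 3 lay on WT scratched replicate 3: Mcm4 at 7.82 (others 8.50 to 8.62), Rfc5 at 6.23 (6.73 to 6.81) and Ccne2 at 4.32 (5.53 to 5.74). On Mmp7-null scratched replicate 1, Rfc4 read 6.66 (7.18 to 7.23). On WT scratched replicate 4, Mcm10 read 3.81 (3.57 to 3.60) and Dscc1 4.12 (3.60 to 3.68). Other low arrays were Mcm3 at 7.06 on WT scratched replicate 2 (7.12 to 7.13), Mcm10 at 3.13 on Mmp7-null scratched replicate 4 (3.54 to 3.57) and Chaf1b at 4.30 on WT scratched replicate 1 (4.70 to 4.77). High ones were Pold1 at 7.52 on Mmp7-null scratched replicate 2 (7.25 to 7.29) and, in uninjured Mmp7-null cultures, Orc1 at 3.10 on replicate 4 (2.35 to 2.44), Cdc45 at 3.61 on replicate 2 (3.52 to 3.53) and Ung at 4.87 on replicate 3 (4.20 to 4.26).

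None of the 37 genes had a scratch response that differed between genotypes past the threshold, with 4 at an unadjusted p below 0.05 in limma. Among the mitotic genes set beside them 2 did, both with a smaller rise in Mmp7-null cells: Cks2 by -0.51 (adjusted p = 0.019) and Kif2c, a microtubule-depolymerizing kinesin, by -1.05 (adjusted p = 0.043). The Cks2 difference passed in 24 of 27 alternatives and the Kif2c difference in 9 of 27, with values from -1.14 to -0.42, the last with the mean over probe sets.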

How the results depend on the processing

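Counts of genes that passed were small and moved with nearly every choice, while the medians kept their sign, except within the Phe arrays on scratching Mmp7-null cells (0.01) and in the interaction (0.00), which was also 0.00 without WT scratched replicate 3. With the replicate block, 0 genes fell on scratching WT and 0 were higher in uninjured Mmp7-null cells; this block left 1 higher in scratched Mmp7-null cells, as without it. The 2 that fell in WT became 1 without the dimmest 40% of genes, with the mean over probe sets, the most variable probe set, a trended robust variance or the spike-in block, and within the Trpn arrays. They became 0 with the 8 arrays compared, without the 3 arrays that stood apart and within the Phe arrays, where the median was -0.01. With array weights and without the 3 arrays, 1 rose in WT. On scratching Mmp7-null cells 1 fell within the Lys arrays, with a median of -0.20. In uninjured cultures the gene higher in Mmp7-null became 0 without dim genes, with either other probe set rule, a trended variance, centred medians, the spike-in block or within the Phe arrays, and 2 with array weights or without the 3 arrays. In scratched cultures it became 3 without dim genes, 2 with the mean over probe sets (median 0.06), 2 with the most variable probe set, 4 with array weights, and 0 with the spike-in block or without the 3 arrays.

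Leaving out single arrays, 0 to 1 rose and 0 to 2 fell on scratching WT (medians -0.18 to -0.07), and 0 rose and 0 fell in Mmp7-null cells (-0.14 to -0.02). Between genotypes 0 to 2 were higher and 0 lower in uninjured cultures (0.07 to 0.13), and 1 to 4 higher and 0 to 1 lower in scratched ones (0.09 to 0.19). The interaction gave 0 either way (0.00 to 0.10).

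For genes named singly, signs turned in 16 cases, none of which passed. Within the Phe arrays these were Mcm10 (-0.01), Mcm2 (0.13) and Tyms (-0.01) in the uninjured genotype comparison, Pcna (0.04) and Uhrf1 (0.03) on scratching WT and Tyms (0.01) on scratching Mmp7-null cells. With the most variable probe set they were Mcm2 between uninjured genotypes (0.08), the Pold1 interaction (-0.19), Rrm1 between scratched genotypes (0.07) and on scratching WT (-0.03), and Slbp on scratching Mmp7-null cells (0.35). With the mean over probe sets they were the Pold1 interaction (-0.04), Slbp on scratching Mmp7-null cells (0.06) and Tyms between scratched genotypes (-0.02). With the spike-in block they were Mcm2 between uninjured (0.00) and Tyms between scratched genotypes (-0.02). Within the Phe arrays each WT group is 1 array, assumed to vary like the other groups, so calls lost there say little. The cause of these changes was not tested.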
